A study of Mus musculus with 21 samples.

Results

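The miR-322/miR-503/miR-351 cluster is a run of 7 microRNA hairpins on the mouse X chromosome, and its arms were described here across 4 groups of left ventricles. The members were chosen by name: every row of the count table that is an arm of miR-322, miR-503, miR-351, miR-542, miR-450a (any copy) or miR-450b. They number 13 of the 1903 named rows, and all 13 had a count in at least 1 of the 21 libraries. A filter on low counts left 561 microRNAs for testing, among them 11 of the 13 arms; the 2 that failed it, miR-450a-1-3p and miR-450a-2-3p, had at most 10 counts in any library.

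The animals were C57BL/6J mice, each giving 1 small RNA library of left ventricular myocardium. Group TAC+PDE5A-I (n = 5) had TAC, a constriction of the aorta that overloads the left ventricle with pressure, and received sildenafil, an inhibitor of phosphodiesterase PDE5A. Group TAC+PDE9A-I (n = 6) had the same surgery and received PF-04449613, an inhibitor of phosphodiesterase PDE9A. Group TAC (n = 5) had the surgery without drug, and group Sham (n = 5) had the sham surgery without drug. Drug was given for 4 weeks from 1 week after surgery. Sex, age and dose are not stated in the labels, which also name no drug group without TAC, so a drug effect in unloaded hearts was not measured.

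MicroRNAs are short RNAs cut from a hairpin, and either arm of the hairpin (5p or 3p) can be loaded into the silencing complex, where bases 2 to 8, the seed, pair with target messengers. Mouse miR-322 corresponds to human miR-424; together with miR-503 it is related to the miR-15/miR-16 family, which restrains the cell cycle through cyclins and their kinases, and in mouse myoblasts both accumulate as the cells stop dividing and become muscle. miR-351-5p carries the seed of the miR-125 family. In bulk tissue, fewer cells of a type and less of an RNA per cell cannot be told apart.

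The mature sequences of the arms that the results turn on are given 5′ to 3′ from RefSeq (GRCm38.p6), with the seed in capitals, to show which arms share a seed and how their base content differs.
miR-322-5p: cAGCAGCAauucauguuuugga
miR-322-3p: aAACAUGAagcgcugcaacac
miR-503-5p: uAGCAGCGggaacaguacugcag
miR-503-3p: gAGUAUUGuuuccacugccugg
miR-351-5p: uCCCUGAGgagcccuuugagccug
miR-351-3p: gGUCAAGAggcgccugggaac
miR-542-3p: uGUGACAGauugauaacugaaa
miR-450a-5p: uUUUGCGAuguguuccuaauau
miR-450b-5p: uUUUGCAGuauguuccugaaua
miR-322-5p and miR-503-5p have seeds that differ in the last base, AGCAGCA against AGCAGCG. The seeds of miR-450a-5p and miR-450b-5p are UUUGCGA and UUUGCAG, and miR-450a-1-3p and miR-450b-3p share the seed UUGGGAA. GC content of these arms ran from 31.8% in miR-542-3p, miR-450a-5p and miR-450b-5p through 40.9% in miR-322-5p and 47.6% in miR-322-3p to 62.5% in miR-351-5p and 66.7% in miR-351-3p.

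For the seed comparison, the other microRNAs tested that carry the seed of miR-322-5p or of miR-351-5p were the following, from the same source and again with the seed in capitals.
miR-15a-5p: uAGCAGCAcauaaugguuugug
miR-15b-5p: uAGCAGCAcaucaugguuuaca
miR-16-5p: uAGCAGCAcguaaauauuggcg
miR-195a-5p: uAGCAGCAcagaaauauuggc
miR-497a-5p: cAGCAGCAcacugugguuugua
miR-125a-5p: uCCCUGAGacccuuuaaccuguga
miR-125b-5p: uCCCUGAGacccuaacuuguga
Of the 561 microRNAs tested, 487 have a RefSeq sequence, and the rest were not checked for a seed. Among those checked, no other carried the seed of miR-503-5p, miR-542-3p, miR-450a-5p or miR-450b-5p.

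All 7 hairpins lie on the minus strand of chromosome X (GRCm38.p6), in the order Mir322, Mir503, Mir351, Mir542, Mir450-2, Mir450-1 and Mir450b. From the start of miR-322-5p at position 53054327 to the end of miR-450b-3p at position 53048008 the arms span 6320 bases. miR-503-5p starts 278 bases and miR-351-5p 989 bases after the start of miR-322-5p, whereas miR-542-5p starts 4853 and miR-450b-5p 6262 bases after it. In GENCODE M21 no arm overlaps a gene other than its own hairpin, and the lincRNA Gm28730 lies between Mir542 and Mir351. miR-450a-5p is the same sequence in both of its copies, so its counts are the sum of the 2 hairpins. miR-450a-1-3p and miR-450b-3p differ in few bases, and reads of either may have been assigned to the other.

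Depth differed between the groups. Library totals were 1205417 to 3969716 per TAC+PDE5A-I library, 1546318 to 7532591 per TAC+PDE9A-I library, 5373960 to 8497792 per TAC library and 3766517 to 7490436 per Sham library. TAC+PDE5A-I replicates 3, 4 and 5 and TAC+PDE9A-I replicate 5 stood apart: these 4 libraries held 1205417 to 1631406 counts, against at least 3149080 in each of the other 17, and the mean GC content of their counted microRNAs was 47.2% to 48.6%, against 44.6% to 46.0%. The 46.0% was that of TAC+PDE5A-I replicates 1 and 2, whose totals of 3149080 and 3969716 were under every TAC library. Among the deeper libraries TAC+PDE9A-I replicate 3 came next, at 45.3%, and the TAC libraries had 44.9% to 45.1%. A listing at 0 was taken to allow up to 3 counts. In the shallowest library these are 2.49 CPM (counts per 1000000 counts of the library), in the deepest 0.353 CPM. No value in the table equals 1, and whether a minimum was set before deposit is not known. These limits, and the intervals of shares, cover counting error only. The p-values rest on the spread between libraries, 1 per mouse, in which differences between mice and between library preparations cannot be told apart. The tissue label was checked against cardiac muscle microRNAs (miR-499-5p, miR-208a-3p, miR-133a-3p, miR-1a-3p), whose summed level was at least 72305 CPM in every library, while the neuronal miR-124-3p was listed at 0 in all 21.

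Arms of the cluster together took 0.127% to 0.249% of the counts of a library. The lowest share was in TAC+PDE9A-I replicate 5 (exact 95% binomial interval 0.122% to 0.133%) and the highest in TAC replicate 4 (0.245% to 0.252%). Mean shares were 0.172% ± 0.0301 in TAC+PDE5A-I, 0.179% ± 0.0358 in TAC+PDE9A-I, 0.204% ± 0.0349 in TAC and 0.166% ± 0.0118 in Sham (SD, n = 5, 6, 5 and 5). The group ranges of this share overlapped, so the summed share did not separate the groups.

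Make-up of that total, in contrast, differed. miR-322-5p and miR-351-5p supplied most of the cluster's counts in every library. In TAC+PDE5A-I, miR-322-5p made up 1.48% to 31.7% of the cluster's counts and miR-351-5p 53.6% to 95.1%. In TAC+PDE9A-I the ranges were 4.78% to 62.1% and 23.8% to 88.5%, in TAC 49.4% to 54.7% and 32.2% to 38.1%, and in Sham 51.8% to 58.1% and 26.1% to 33.9%. miR-351-5p exceeded miR-322-5p in all 5 TAC+PDE5A-I libraries and in 1 of 6 TAC+PDE9A-I libraries, and in no TAC or Sham library. That TAC+PDE9A-I library was replicate 5, with miR-322-5p at 4.78% (95% Wilson interval 3.93% to 5.82%) and miR-351-5p at 88.5% (87.1% to 89.9%). The 2 deeper TAC+PDE5A-I libraries, replicates 1 and 2, had 19.1% and 31.7% of miR-322-5p, and the 3 shallow ones 2.45%, 1.48% and 1.52%. These are shares of counts among RNAs of 21 to 24 bases, with no correction for how well each sequence enters a library.

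**Figure D1:**
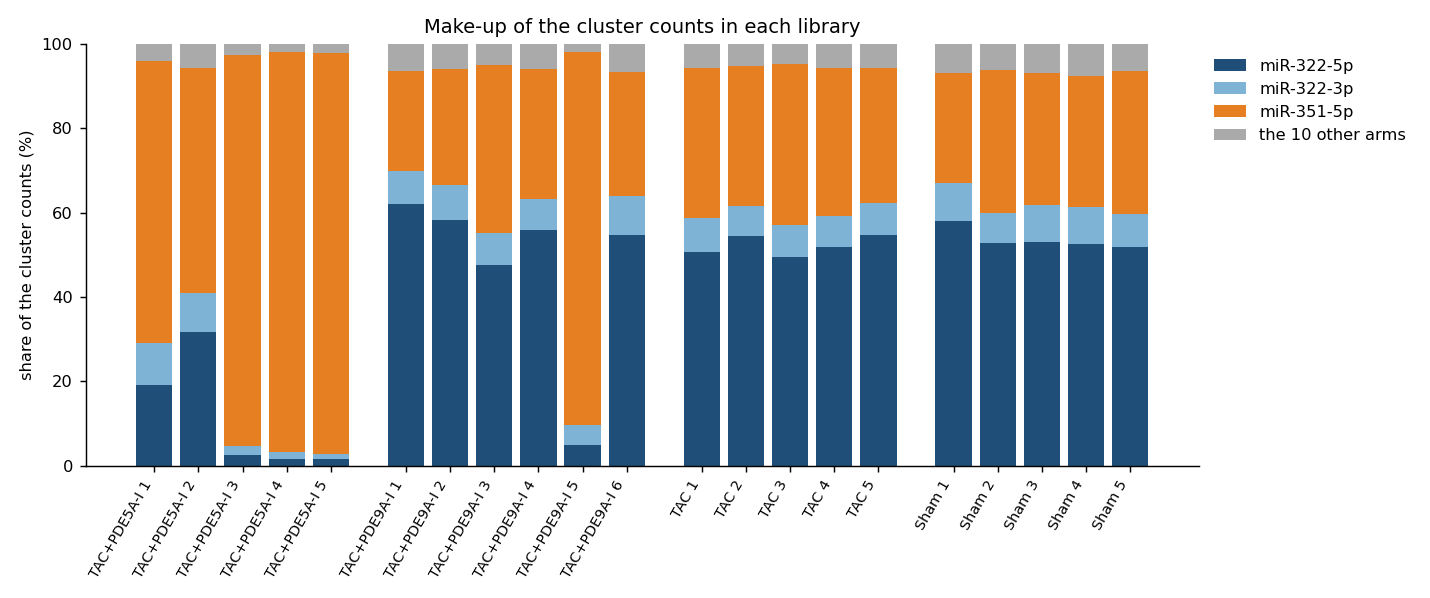
Each bar is 1 library and shows the share of the cluster's counts (percent, linear axis) taken by miR-322-5p, miR-322-3p, miR-351-5p and the 10 other arms together. miR-351-5p fills 53.6% to 95.1% of the TAC+PDE5A-I bars and 88.5% of the TAC+PDE9A-I replicate 5 bar, against 32.2% to 38.1% of the TAC bars.

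Sildenafil in the overloaded ventricle was addressed by TAC+PDE5A-I against TAC. In it, 5 arms were lower (miR-322-5p, miR-322-3p, miR-542-3p, miR-450a-5p and miR-450b-5p), 3 were higher (miR-351-5p, miR-351-3p and miR-503-3p) and 3 did not pass (miR-503-5p, miR-542-5p and miR-450b-3p). Of all 561 microRNAs tested, 24.8% were called lower and 21.6% higher in this comparison (edgeR quasi-likelihood test, Benjamini-Hochberg adjusted p under 0.05). With so many microRNAs called, the number of cluster arms called is not itself a result about the cluster. The median log2 fold change was -0.86 over the 11 arms and -0.31 over all 561. It was -0.40 over the arms and -0.47 over all 487 microRNAs with the GC correction described further on, and 0.03 over the arms and 0 over all 660 microRNAs without the 4 shallow libraries. The libraries of the 2 groups did not overlap for 5 of the 11 arms, against 33.9% of all microRNAs tested.

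miR-322-5p, the arm with the seed of the miR-15/miR-16 family, stood at 259, 432, 46.4, 30.3 and 24.6 CPM (from here on after TMM scaling between libraries) in TAC+PDE5A-I replicates 1 to 5, against 914, 1049, 964, 1336 and 1002 CPM in TAC replicates 1 to 5. The groups did not overlap, and the 3 shallow TAC+PDE5A-I libraries were the lowest. Means were 158 ± 182 CPM in TAC+PDE5A-I and 1053 ± 166 CPM in TAC (SD, n = 5 each). The log2 fold change was -2.72 ± 0.71 (SE, adjusted p = 0.0058, edgeR quasi-likelihood test).

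Its partner arm miR-322-3p had 136, 125, 42.8, 37.7 and 18.6 CPM in TAC+PDE5A-I, against 146, 138, 151, 194 and 136 CPM in TAC. Replicate 1 of TAC+PDE5A-I lay within the TAC range and the 3 shallow libraries far under it. The log2 fold change was -1.07 ± 0.41 (SE, edgeR adjusted p = 0.0371). It was -0.21 (adjusted p = 0.577) without the 4 shallow libraries, and the adjusted p passed 0.05 without any 1 of TAC replicates 1, 4 or 5 or TAC+PDE5A-I replicates 3, 4 or 5 (0.0502 to 0.0971).

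The hairpins at the far end of the cluster gave low counts with large differences. miR-450b-5p had 4.19 and 6.48 CPM in TAC+PDE5A-I replicates 1 and 2 and was listed at 0 in replicates 3, 4 and 5, against 26.3, 20.6, 21.8, 38.8 and 23.0 CPM in TAC. miR-542-3p, for which the inhibitor of apoptosis survivin is a reported target in human cells, had 3.59 and 4.69 CPM in the same 2 libraries and was listed at 0 in the same 3, against 26.5, 12.5, 10.02, 25.3 and 9.60 CPM in TAC. Neither arm overlapped between the groups. Their log2 fold changes were -3.32 ± 0.84 for miR-450b-5p (SE, edgeR adjusted p = 0.00479) and -3.04 ± 0.83 for miR-542-3p (SE, edgeR adjusted p = 0.00735). Across the whole series both arms were at 0 in all 4 libraries under 2000000 counts and in none of the other 17.

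miR-450a-5p, the sum of 2 identical copies, had 14.1, 28.8, 4.35, 6.07 and 8.95 CPM in TAC+PDE5A-I, against 30.8, 46.3, 40.7, 59.0 and 47.6 CPM in TAC. The groups did not overlap, though TAC+PDE5A-I replicate 2 came close to TAC replicate 1. The log2 fold change was -1.80 ± 0.64 (SE, edgeR adjusted p = 0.0266). The adjusted p was 0.0557 without TAC replicate 4 and 0.0649 to 0.0721 without TAC+PDE5A-I replicate 3, 4 or 5.

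miR-351-5p, the arm with the miR-125 seed, went the other way. It had 903, 731, 1754, 1946 and 1543 CPM in TAC+PDE5A-I, against 640, 637, 743, 905 and 589 CPM in TAC. The 2 deeper TAC+PDE5A-I libraries lay within the TAC range and the 3 shallow ones above all TAC libraries. The log2 fold change was 0.97 ± 0.29 (SE, edgeR adjusted p = 0.0114). It was 0.23 (adjusted p = 0.536) without the 4 shallow libraries, and 0.58, 0.52 and 0.64 without TAC+PDE5A-I replicate 3, 4 or 5 (adjusted p = 0.079, 0.098 and 0.054).

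The other arm of that hairpin, miR-351-3p, was listed at 0 in all 5 TAC libraries. It had 0, 6.71, 8.70, 4.04 and 5.97 CPM in TAC+PDE5A-I replicates 1 to 5, from 0, 30, 12, 6 and 8 counts. If a listing at 0 in TAC stands for at most 3 counts per library, the mean of TAC+PDE5A-I, 5.08 CPM, was at least 10.8-fold higher (edgeR adjusted p = 0.0124, and 0.0877 without the 4 shallow libraries). With 1 TAC+PDE5A-I library at 0 the groups touch.

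miR-503-3p had 18.9, 16.3, 23.2, 22.2 and 17.9 CPM in TAC+PDE5A-I, against 9.42, 10.4, 12.3, 11.7 and 11.1 CPM in TAC. All 5 TAC+PDE5A-I libraries, deep and shallow, lay above all 5 TAC libraries. The log2 fold change was 0.84 ± 0.18 (SE, edgeR adjusted p = 0.00228), and 0.69 (adjusted p = 0.0277) without the 4 shallow libraries. This is the one higher arm that passed in both.

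For the 3 arms that did not pass, the intervals were wide or spanned 0. miR-503-5p averaged 2.49 ± 2.62 CPM in TAC+PDE5A-I and 2.28 ± 0.454 CPM in TAC (log2 fold change 0.19, 95% interval -2.36 to 2.74). miR-542-5p averaged 6.94 ± 2.96 CPM in TAC+PDE5A-I and 5.60 ± 0.236 CPM in TAC (0.30, -0.29 to 0.89). miR-450b-3p averaged 1.03 ± 1.41 CPM in TAC+PDE5A-I and 2.13 ± 0.352 CPM in TAC (-0.86, -2.98 to 1.27; SD, n = 5 in each of these means). A level near the limit of 3 counts in the shallow libraries does not allow a difference to be seen for miR-503-5p and miR-450b-3p.

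**Figure D2:**
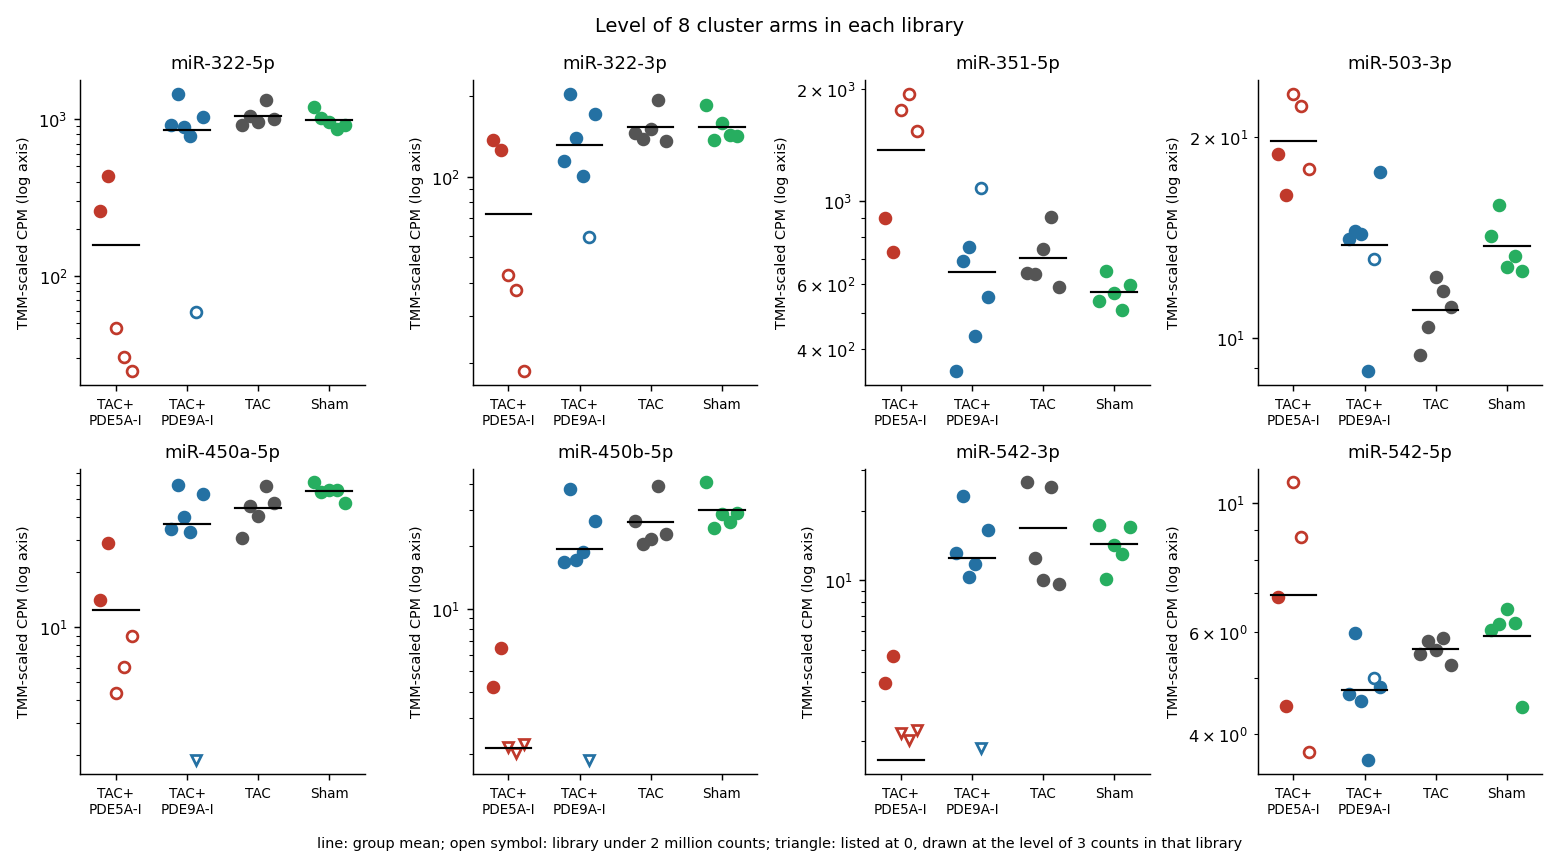
Each point is 1 library, the vertical axis is its TMM-scaled CPM on a log axis, the line is the group mean (0 entered as 0), open symbols are the 4 libraries under 2000000 counts and triangles are libraries listed at 0, drawn at the level of 3 counts. For miR-322-5p the TAC+PDE5A-I points, 24.6 to 432 CPM, lie below all TAC points, 914 to 1336 CPM, and TAC+PDE9A-I replicate 5, at 58.7 CPM, lies with them.

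Leaving out the 4 shallow libraries, a choice made after seeing the data, kept 4 lower arms: miR-322-5p at -1.59 (adjusted p = 0.000443), miR-450b-5p at -2.26 (0.000527), miR-542-3p at -1.98 (0.00607) and miR-450a-5p at -1.05 (0.0241) on the log2 scale, by edgeR. Of the 660 microRNAs in that fit, 81 were called lower and 41 higher. TAC+PDE5A-I then holds 2 libraries, which are assumed to vary like the other groups. The mean GC content of their counted microRNAs was 46.0%, against 44.9% to 45.1% in TAC, a difference that this fit keeps. The mice carry ear tag numbers in the labels, and these 2 libraries have tags from 500 up while the 3 shallow ones have tags from 600 up. Within tags from 500, miR-322-5p averaged 345 CPM in 2 TAC+PDE5A-I libraries and 964 CPM in 1 TAC library, and within tags from 600 it averaged 33.8 CPM in 3 TAC+PDE5A-I libraries and 1169 CPM in 2 TAC libraries. For miR-351-5p the same means were 817 and 743 CPM within tags from 500, and 1748 and 747 CPM within tags from 600. So the direction was the same in both sets, and both differences were larger in the set that holds the shallow libraries. These sets were not tested on their own. With the ear tag range as a term in the model over all libraries, miR-322-5p was at -3.35 (edgeR adjusted p = 0.00583) and miR-351-5p at 0.84 (0.0384), and 3 arms were higher and 5 lower. Of all 561 microRNAs in that fit, 99 were called higher and 138 lower.

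Fold changes in this comparison ran with the base content of the microRNA. Over the 487 microRNAs tested that have a RefSeq sequence, Spearman's rho between log2 fold change and GC content was 0.695, and over the 11 arms of the cluster it was 0.899. The lower arms have 31.8% to 47.6% GC and the higher arms 50% to 66.7%. In TAC against Sham rho was 0.04 over the 487 and 0.06 over the 11 arms. It was 0.35 and 0.76 in TAC+PDE9A-I against TAC, and 0.69 and 0.93 in TAC+PDE5A-I against TAC+PDE9A-I. MicroRNAs share libraries and are not independent, so these are descriptions only.

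With a smooth curve of each library against GC content taken out, 3 arms were lower and 2 higher in TAC+PDE5A-I than in TAC. Over the 487 microRNAs of that fit, 99 were called lower and 37 higher. The lower arms were miR-322-5p at -2.01 (edgeR adjusted p = 0.0073), miR-322-3p at -1.04 (0.0374) and miR-450b-5p at -1.56 (0.0378), and the higher ones were miR-351-3p (0.0429) and miR-503-3p at 0.62 (0.0112). miR-542-3p kept its direction at -1.25 without passing (0.102), whereas miR-351-5p (-0.40, adjusted p = 0.119) and miR-450a-5p (0.26, adjusted p = 0.658) changed sign. The part of depth, of GC content and of sildenafil in these differences cannot be told apart for any arm. Every TAC+PDE5A-I library was shallower than every TAC library, and its counted microRNAs had a higher mean GC content.

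**Figure D3:**
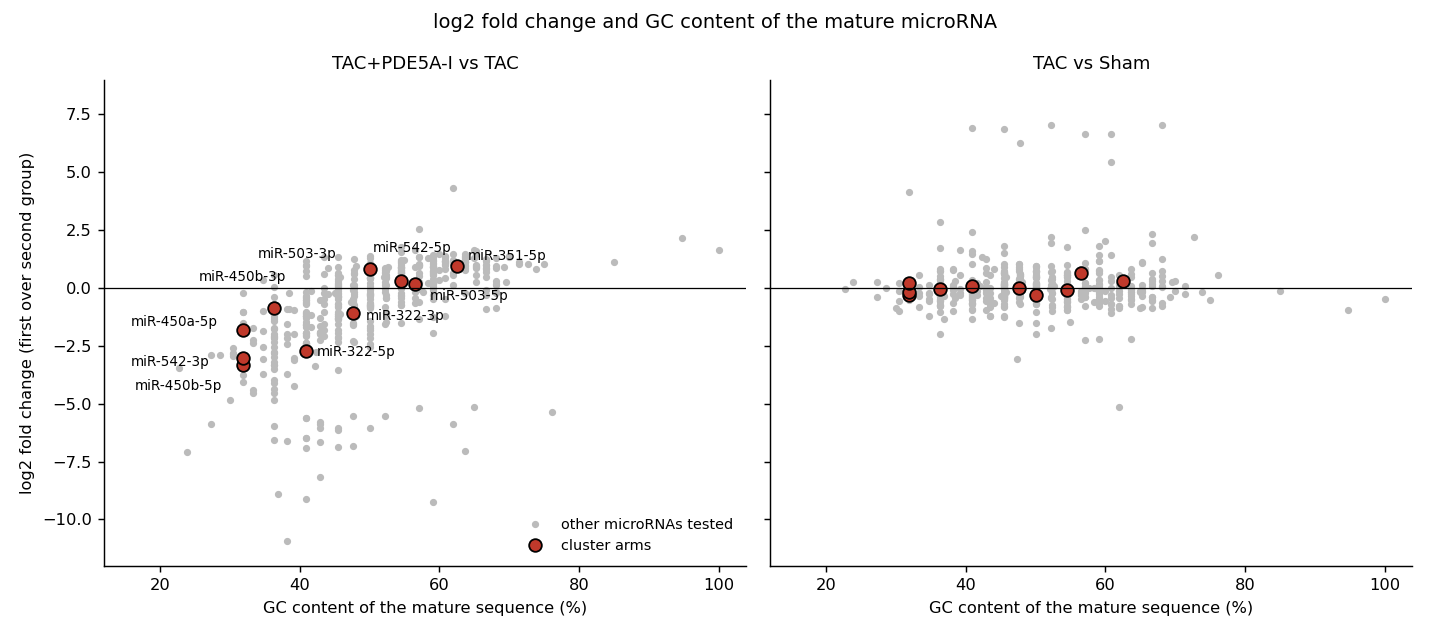
Each point is 1 microRNA, with the GC content of its mature sequence (percent) across and its log2 fold change up, for TAC+PDE5A-I over TAC on the left and TAC over Sham on the right. Red points are 10 arms of the cluster, named on the left (miR-351-3p, at 0 in all TAC libraries, is left out); on the left they climb from -3.32 for miR-450b-5p at 31.8% GC to 0.97 for miR-351-5p at 62.5%, and on the right they lie between -0.32 for miR-503-3p and 0.64 for miR-503-5p.

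Markers of other cell types moved in this comparison as well. In it 24.8% of all microRNAs tested were called lower and 21.6% higher, and the 3 shallow TAC+PDE5A-I libraries are included. The summed level of the stromal list (miR-199a-5p, miR-199a-3p and miR-214-3p) was 1362 to 3581 CPM in TAC+PDE5A-I and 5429 to 8206 CPM in TAC, with 2 of 3 lower. That of smooth muscle (miR-143-3p and both arms of miR-145a) was 4839 to 43329 CPM in TAC+PDE5A-I and 70349 to 143615 CPM in TAC, with 2 of 3 lower and 1 higher, and that of endothelium (both arms of miR-126a) was 999 to 15676 CPM and 25780 to 42969 CPM in these groups, with 1 of 2 lower. Red cell microRNAs (both arms of miR-144 and miR-451a) summed to 23.1 to 416 CPM in TAC+PDE5A-I and 445 to 1211 CPM in TAC, with 3 of 3 lower. These 4 lists thus did not overlap between the groups in their sums. The leukocyte list (5 microRNAs, led by both arms of miR-142a) did, at 2180 to 3150 CPM in TAC+PDE5A-I and 1397 to 2523 CPM in TAC, with 3 lower and 1 higher. Cardiac muscle markers summed to 140605 to 268930 CPM in TAC+PDE5A-I and 77720 to 144036 CPM in TAC, with 3 of 4 lower and 1 higher. The neuronal miR-9-5p was lower and miR-124-3p was at 0 throughout. Their part in the values of the cluster was not tested.

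The 2 arms of miR-322 come from 1 hairpin and 1 library, so their ratio needs no scaling between libraries. It was the one hairpin with a median of at least 10 counts of both arms in every group. miR-322-5p outnumbered miR-322-3p 1.89, 3.45, 1.08, 0.804 and 1.32 times in TAC+PDE5A-I replicates 1 to 5, and 6.25, 7.61, 6.38, 6.90 and 7.37 times in TAC. Every TAC+PDE5A-I library lay below every TAC library. On the log2 scale the ratio averaged 0.58 ± 0.81 in TAC+PDE5A-I, 2.34 ± 1.16 in TAC+PDE9A-I, 2.78 ± 0.12 in TAC and 2.69 ± 0.11 in Sham (SD, n = 5, 6, 5 and 5).

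The difference between TAC+PDE5A-I and TAC was -2.20 (two-sided exact permutation test, p = 0.00794, the smallest that 252 arrangements allow; adjusted p = 0.0317 over the 4 comparisons). Between TAC+PDE5A-I and TAC+PDE9A-I it was -1.76 (exact permutation p = 0.0303, adjusted p = 0.0606), between TAC+PDE9A-I and TAC -0.44 (exact permutation p = 0.675, adjusted p = 0.675), and between TAC and Sham 0.09 (exact permutation p = 0.254, adjusted p = 0.339). TAC+PDE9A-I replicate 5 had a log2 ratio of -0.02 and the other 5 libraries of that group 2.58 to 2.99; without it the difference to TAC was 0.03. miR-322-5p has 40.9% GC and miR-322-3p 47.6%, and the 4 libraries with the lowest log2 ratios were the 4 shallow ones. Without them the difference between TAC+PDE5A-I and TAC was -1.43, over 2 and 5 libraries (exact permutation, adjusted p = 0.19). The 21 arrangements of 2 against 5 libraries allow no p under 0.0952, so this test could not pass.

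**Figure D4:**
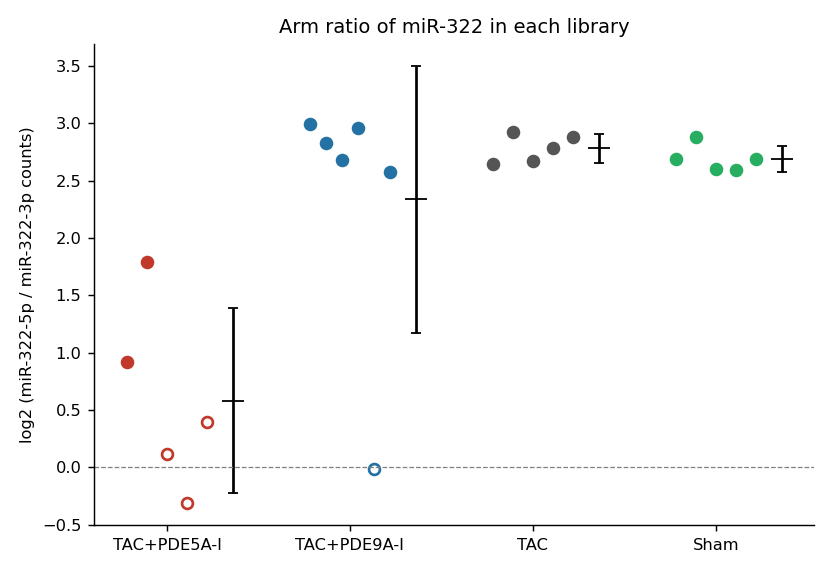
Each point is the log2 ratio of miR-322-5p to miR-322-3p counts in 1 library, open points are the 4 libraries under 2000000 counts and the black bar is the group mean with its SD. TAC+PDE5A-I averages 0.58, TAC+PDE9A-I 2.34 with replicate 5 at -0.02, TAC 2.78 and Sham 2.69.

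In the other hairpins the commoner arm was not always the 5p arm. miR-503-3p exceeded miR-503-5p in all 21 libraries, with 225 against 43 counts summed over TAC+PDE5A-I, 455 against 87 over TAC+PDE9A-I, 366 against 76 over TAC and 342 against 33 over Sham. miR-542-3p exceeded miR-542-5p in 1 of 5 TAC+PDE5A-I libraries, 5 of 6 TAC+PDE9A-I libraries and all 10 TAC and Sham libraries. The 5p arm of miR-351 was above its 3p arm in every library, and miR-450b-5p was above miR-450b-3p wherever either had a count.

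PDE9A inhibition was addressed by TAC+PDE9A-I against TAC, and there no arm passed. Of all microRNAs tested, 0% were called higher and 0% lower by edgeR; at an unadjusted p under 0.05 there were 16 of 561, with miR-351-3p the 1 cluster arm. DESeq2 called 1 microRNA lower and none higher, no cluster arm among them. miR-322-5p had 913, 1458, 894, 784, 58.7 and 1030 CPM in TAC+PDE9A-I replicates 1 to 6, against 914, 1049, 964, 1336 and 1002 CPM in TAC. Replicate 5 stood far below the TAC libraries and replicate 2 was above them all. Replicates 1 and 3 were just under the lowest TAC library, replicate 4 was further under it and replicate 6 was within the TAC range. The log2 fold change of miR-322-5p was -0.30 (95% interval -1.63 to 1.03).

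miR-351-5p averaged 644 ± 264 CPM in TAC+PDE9A-I and 703 ± 126 CPM in TAC (SD, n = 6 and 5; log2 fold change -0.13, 95% interval -0.69 to 0.44). miR-503-3p averaged 13.8 ± 2.85 CPM in TAC+PDE9A-I and 10.98 ± 1.13 CPM in TAC (0.32, -0.04 to 0.69). These intervals leave room for changes of either arm, so they do not show equal levels. Replicate 5 of TAC+PDE9A-I, the shallow library, had 1087 CPM of miR-351-5p, the highest of its group, and was listed at 0 for miR-450a-5p, miR-450b-5p, miR-450b-3p and miR-542-3p, which the other 5 libraries all held. miR-351-3p had 2.01 and 2.12 CPM in TAC+PDE9A-I replicates 1 and 2 and was listed at 0 in the other 4 and in all TAC libraries.

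The drugs were set against each other by TAC+PDE5A-I against TAC+PDE9A-I. Because both drug effects use the same TAC libraries, this contrast equals the difference between them. By edgeR, 2 arms were higher in TAC+PDE5A-I (miR-351-5p and miR-503-3p), 3 were lower (miR-322-5p, miR-450b-5p and miR-542-3p) and 6 did not pass; of all 561 microRNAs, 15.2% were called higher and 19.6% lower. miR-322-5p averaged 158 ± 182 CPM in TAC+PDE5A-I and 856 ± 456 CPM in TAC+PDE9A-I (SD, n = 5 and 6; log2 fold change -2.43 ± 0.69 SE, adjusted p = 0.0141). All 5 arms overlapped between the groups. For miR-322-5p, miR-450b-5p and miR-542-3p that was through TAC+PDE9A-I replicate 5.

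The log2 fold changes of the others were -2.92 ± 0.81 for miR-450b-5p, -2.63 ± 0.80 for miR-542-3p, 1.09 ± 0.27 for miR-351-5p and 0.51 ± 0.18 for miR-503-3p (SE, edgeR adjusted p = 0.0139, 0.0197, 0.00867 and 0.03). Calls here depended on the model. With DESeq2 size factors in place of TMM, 1 arm was higher and 3 lower (50 and 126 of all microRNAs, against 85 and 110), and miR-503-3p was the arm lost. In a fit of the 2 groups alone no microRNA passed, with miR-322-5p at -2.51 (adjusted p = 0.108). Without the 4 shallow libraries 4 arms were lower, miR-322-5p among them at -1.56 (adjusted p = 0.000539), and none was higher, with 84 lower and 20 higher of all 660 microRNAs in that fit. With the GC correction miR-322-5p was the 1 arm called, at -1.73 (adjusted p = 0.0282), while miR-351-5p was at 0.0086 (0.98), miR-503-3p at 0.32 (0.172), miR-450b-5p at -1.23 (0.106) and miR-542-3p at -0.95 (0.233); of all 487 microRNAs, 59 were lower and 21 higher. miR-503-3p lost its call without any 1 of Sham replicate 5, TAC replicate 3 or replicates 1 to 5 of either drug group (adjusted p = 0.0501 to 0.294). Without TAC+PDE5A-I replicate 3, miR-450b-5p was the 1 arm lower, with miR-322-5p at -2.29 (adjusted p = 0.0567) and 59 of all 586 microRNAs lower. Without TAC+PDE5A-I replicate 2 or TAC+PDE9A-I replicate 5, 5 were lower, with miR-322-3p and miR-450a-5p added. Over all microRNAs 167 of 580 and 157 of 560 were then lower, against 110 of 561 with all libraries. miR-542-3p missed without TAC+PDE5A-I replicate 3, 4 or 5 (adjusted p = 0.0544 to 0.059).

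**Figure D5:**
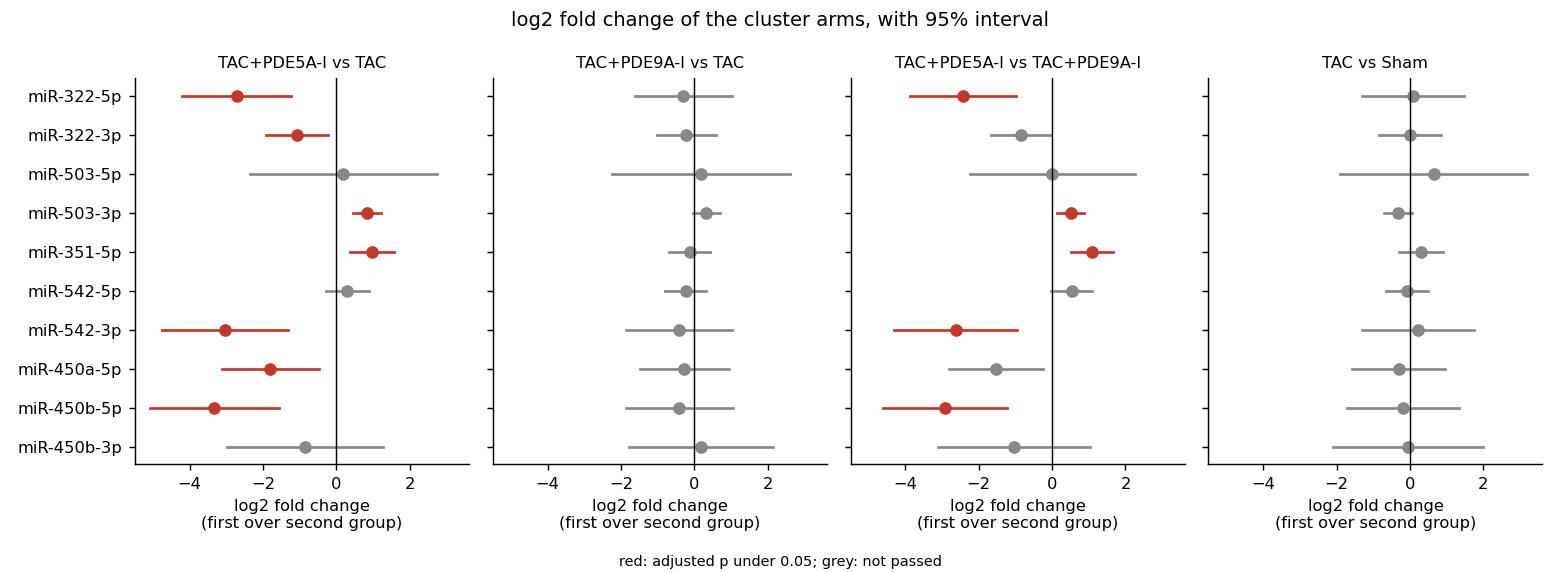
Points are log2 fold changes of 10 arms (first over second group) with 95% intervals from the edgeR fit, 1 panel per comparison, red where the adjusted p was under 0.05 (miR-351-3p, at 0 in all TAC libraries, is left out). For miR-322-5p the estimates are -2.72 for TAC+PDE5A-I over TAC, -0.30 for TAC+PDE9A-I over TAC, -2.43 for TAC+PDE5A-I over TAC+PDE9A-I and 0.09 for TAC over Sham.

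Pressure overload alone was addressed by TAC against Sham, and no arm of the cluster passed. Over all microRNAs tested 2.14% were called higher and 0.178% lower by edgeR. At an unadjusted p under 0.05 there were 88 of 561, with miR-351-3p the 1 cluster arm. That arm had 13 counts in Sham replicate 3 and was listed at 0 in every other Sham and TAC library. DESeq2 called 33 higher and 14 lower, no cluster arm among them. The median log2 fold change was -0.05 over the 11 arms and -0.08 over all 561.

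miR-322-5p had 914, 1049, 964, 1336 and 1002 CPM in TAC, against 1200, 1013, 966, 863 and 914 CPM in Sham, ranges that overlap almost wholly (log2 fold change 0.09, 95% interval -1.31 to 1.48). By group mean, miR-322-5p was highest in TAC, then in Sham, TAC+PDE9A-I and TAC+PDE5A-I; TAC and Sham did not differ beyond their spread, nor did TAC+PDE9A-I and TAC, and TAC+PDE9A-I and Sham, its neighbours in that order, were not tested against each other. miR-351-5p had 640, 637, 743, 905 and 589 CPM in TAC, against 539, 650, 567, 510 and 596 CPM in Sham. These overlap too (0.30, 95% interval -0.30 to 0.89), but in a fit of the 2 groups alone miR-351-5p was higher in TAC at 0.42 (edgeR adjusted p = 0.0452), with 75 of 507 microRNAs called higher and 23 lower. In the fit of all groups without the 4 shallow libraries it was at 0.28 and did not pass (adjusted p = 0.38).

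miR-503-3p was the one arm of 11 whose TAC and Sham libraries did not overlap, against 16.9% of all microRNAs tested. It had 9.42, 10.4, 12.3, 11.7 and 11.1 CPM in TAC, against 14.2, 15.8, 12.7, 13.2 and 12.6 CPM in Sham. The gap between the groups was narrow, and the log2 fold change of -0.32 ± 0.18 did not pass (SE, edgeR adjusted p = 0.485). Its partner miR-503-5p was found in all 5 TAC libraries, at 1.57 to 2.82 CPM, against 3.57 and 3.78 CPM in Sham replicates 2 and 4 and a listing at 0 in Sham replicates 1, 3 and 5. In Sham replicate 1, the deepest Sham library, 3 counts are 0.519 CPM. miR-503-5p was also at 0 in the shallow TAC+PDE5A-I replicates 4 and 5 and in TAC+PDE9A-I replicate 6.

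Of the low arms, miR-450a-5p averaged 44.9 ± 10.3 CPM in TAC and 55.6 ± 5.07 CPM in Sham, miR-450b-5p 26.1 ± 7.44 and 29.7 ± 6.30 CPM, and miR-542-3p 16.8 ± 8.40 and 14.3 ± 2.98 CPM in these groups (SD, n = 5 each). None of them passed. miR-450a-1-3p had at most 5 counts in any library and was found in 0 of 5 TAC+PDE5A-I, 1 of 6 TAC+PDE9A-I, 2 of 5 TAC and 1 of 5 Sham libraries. miR-450a-2-3p had at most 10 counts and was found in 1 of 5 TAC+PDE5A-I, 2 of 6 TAC+PDE9A-I, 1 of 5 TAC and 2 of 5 Sham libraries, so nothing can be said of their differences at this depth.

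The seed of miR-322-5p is carried by 5 other microRNAs tested that have a RefSeq sequence. These did not move as 1 group in TAC+PDE5A-I against TAC, where 24.8% of all microRNAs tested were called lower and 21.6% higher. miR-15a-5p was lower, at 100 CPM in TAC+PDE5A-I and 390 CPM in TAC (log2 fold change -1.95 ± 0.57 SE, edgeR adjusted p = 0.0109), and miR-195a-5p was lower, at 175 and 681 CPM in these groups (-1.95 ± 0.65, adjusted p = 0.0205). miR-15b-5p was higher, at 165 CPM in TAC+PDE5A-I and 72.6 CPM in TAC (1.18 ± 0.25, adjusted p = 0.00195). GC content is 40.9% in miR-15b-5p, miR-15a-5p and miR-322-5p, and its part in the changes of these relatives was not tested. miR-16-5p (-1.20 ± 0.51, adjusted p = 0.0581) and miR-497a-5p (-0.25 ± 0.25, adjusted p = 0.443) did not pass. miR-16-5p was the commonest of the 6, at 2786 CPM in TAC+PDE5A-I and 6415 CPM in TAC. miR-322-5p made up 3.19% ± 1.74 of the summed level of this seed in TAC+PDE5A-I, 9.26% ± 3.73 in TAC+PDE9A-I, 11.5% ± 0.601 in TAC and 11.9% ± 0.831 in Sham (SD, n = 5, 6, 5 and 5).

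Both relatives of miR-351-5p were called higher along with it in TAC+PDE5A-I against TAC, as were 21.6% of all microRNAs tested. miR-351-5p itself was at 0.23 without the 4 shallow libraries (edgeR adjusted p = 0.536) and -0.40 with the GC correction (edgeR adjusted p = 0.119). GC content is 62.5% in miR-351-5p and 50% in both relatives, and its part in their changes was not tested. miR-125a-5p averaged 14644 CPM in TAC+PDE5A-I and 5548 CPM in TAC (log2 fold change 1.40 ± 0.24 SE, edgeR adjusted p = 0.000593), and miR-125b-5p 8262 and 4798 CPM in these groups (0.78 ± 0.20, adjusted p = 0.00506). miR-351-5p made up 5.58% ± 1.07 of this seed's summed level in TAC+PDE5A-I, 4.79% ± 1.51 in TAC+PDE9A-I, 6.54% ± 1.60 in TAC and 5.86% ± 0.518 in Sham (SD, n = 5, 6, 5 and 5), a share that was not tested. None of the 7 relatives passed in TAC against Sham or in TAC+PDE9A-I against TAC. Reads of the miR-125 microRNAs, which differ little from each other, may be assigned to one another.

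Among 303 microRNAs with a mean of at least 10 CPM, those whose log2 CPM ran most like miR-322-5p over the 21 libraries were miR-190a-5p (Spearman's rho 0.909), miR-15a-5p (0.888), miR-22-5p (0.883), miR-126a-5p (0.870) and miR-27a-3p (0.843). Within the cluster, rho with miR-322-5p was 0.866 for miR-450a-5p, 0.865 for miR-450b-5p, 0.836 for miR-322-3p, 0.762 for miR-542-3p, -0.413 for miR-503-3p and -0.440 for miR-351-5p. Arms cut from neighbouring hairpins thus ran in opposite directions across the series. Over the 10 TAC and Sham libraries alone, all of them deep, the closest were miR-331-3p (0.867), miR-193b-3p (0.855), miR-130a-3p (0.842), miR-15a-5p (0.794) and miR-145a-5p (0.782), and the arms of the cluster had 0.03 (miR-542-3p) to 0.430 (miR-450a-5p). Only miR-15a-5p was in both sets of 5. The libraries differ in depth and in the GC content of their counts, which these microRNAs share, so the values are descriptions.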

How the data were processed

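MicroRNAs of the left ventricle of 21 mice were measured by small RNA sequencing (TruSeq Small RNA kit, per the labels' protocols). Raw, unnormalised counts of reads for each mature microRNA were deposited by the authors. According to the submitters' processing notes, the tools were DESeq (1.26.0), Bowtie (1.1.1), cutadapt (1.8) and CASAVA (1.8.4); roles, genome build and annotation are not given there. Of 25958 lines of the table, 24055 hold no microRNA and 1903 carry a name.

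One robust quasi-likelihood model over the 4 groups (17 residual degrees of freedom) was fitted with edgeR 4.0.16 in R 4.3.3, after filterByExpr by group (minimum count 10) and TMM scaling. Benjamini-Hochberg adjustment ran over all 561 microRNAs that passed the filter, and an adjusted p under 0.05 made a call. Log2 fold changes are the first group named over the second, with their SE. For arm ratios, 0.5 was added to each count and the groups were tested by exact two-sided permutation (scipy 1.17.1). Alternatives were DESeq2 1.42.0, other scalings, no filter, thinning, a GC correction (a loess curve of span 0.75 per library, over 487 microRNAs with a RefSeq sequence), ear tag or replicate number as a term, the 2 groups alone, leaving out each library, and leaving out the 4 libraries under 2000000 counts. Depth ran from 1205417 to 8497792 counts per library, and no 2 libraries held identical values.

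The rule for the arms, the marker lists and the tests were chosen with earlier results of these data known. Every arm of the rule is named, with the microRNAs of the same seed and the 5 most like miR-322-5p by Spearman correlation. Replicate numbers come from the sample titles, and libraries of the same number did not deviate together (1 to 3 of 5 pairs over a correlation of 0.1 in each comparison), so they were not treated as pairs.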

Additional observations from a re-analysis of the deposited data

Results flagged for a closer look

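Of 54 groups of libraries checked for a lone value, 10 held a highest or lowest library that stood far from the rest by Dixon's test; chance gives about 1 in 20. Several are arms at the limit of detection, where 1 library held a few counts and the others of its group were at 0. miR-351-3p was at 2.67 CPM in Sham replicate 3, miR-450a-1-3p at 0.563 CPM in TAC+PDE9A-I replicate 4 and at 0.774 CPM in Sham replicate 5, and miR-450a-2-3p at 1.796 CPM in TAC+PDE5A-I replicate 1 and at 1.13 CPM in TAC replicate 5.

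The others were better counted. miR-322-3p reached 194 CPM in TAC replicate 4, the deepest library, against 136 to 151 CPM in the other TAC libraries. In Sham replicate 1, miR-450b-5p was the highest of its group at 40.5 CPM while its partner arm miR-450b-3p was listed at 0. miR-542-5p was lowest in Sham replicate 5, at 4.45 CPM. The log2 arm ratio of miR-322 was -0.015 in TAC+PDE9A-I replicate 5, 1 of the 4 libraries under 2000000 counts, against 2.58 to 2.99 in the rest of that group.

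The effect of sildenafil and that of the PDE9A inhibitor differed for 5 arms in the test of TAC+PDE5A-I against TAC+PDE9A-I (edgeR), on the log2 scale by -2.43 for miR-322-5p, 1.09 for miR-351-5p, -2.92 for miR-450b-5p, 0.51 for miR-503-3p and -2.63 for miR-542-3p. Depth moves with the same contrast, with 3 of 5 TAC+PDE5A-I libraries and 1 of 6 TAC+PDE9A-I libraries under 2000000 counts, and its part in these differences was not tested.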

How the results depend on the processing

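TAC+PDE5A-I against TAC gave 3 higher and 5 lower arms. The lower count was 3 with the GC correction. The higher count was 1 with thinned counts (miR-503-3p missed at adjusted p = 0.0878 and miR-351-3p failed the filter) and 1 without the 4 libraries under 2000000 counts. With thinned counts 93 of all 373 microRNAs were higher and 122 lower. The call of miR-322-3p was lost when the 2 groups were fitted alone (-1.06, adjusted p = 0.0872) and with total-count scaling (adjusted p = 0.0523), and that of miR-351-5p with no filter (0.71, adjusted p = 0.0542). Leaving out 1 library gave 2 to 3 higher and 3 to 5 lower, with 3 lower without TAC replicate 4 or TAC+PDE5A-I replicate 3, 4 or 5. Of all microRNAs, 118 of 577 were lower without TAC replicate 4. Without TAC+PDE5A-I replicate 3, 4 or 5, 109 of 586, 116 of 588 and 117 of 590 were lower. miR-322-5p, miR-450b-5p, miR-542-3p, miR-503-3p and miR-351-3p kept their calls without any 1 library. TAC+PDE5A-I against TAC+PDE9A-I gave 2 higher and 3 lower: 1 higher with DESeq2 size factors, no filter, DESeq2 (5 lower), the ear tag term or thinned counts, 0 higher and 1 lower with the GC correction, 0 and 0 in the fit of the 2 groups alone, and 0 higher without the shallow libraries. Calls over all microRNAs moved as well. With no filter 29 of 832 were higher and 105 lower, and with DESeq2 69 of 561 and 169. With the ear tag term 26 of 561 were higher and 89 lower, and with thinned counts 66 of 373 and 103. Leaving out 1 library gave 1 to 2 higher and 1 to 5 lower. TAC against Sham gave 1 higher arm, miR-351-5p, in the fit of the 2 groups alone and 0 otherwise, and TAC+PDE9A-I against TAC gave 0 in every alternative run. The cause of these changes was not tested. Over all 561 microRNAs, the median in TAC against Sham was 0.09 with total-count scaling (-0.08 with TMM), and that in TAC+PDE5A-I against TAC was -0.46 with DESeq2 size factors (-0.31 with TMM).

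The miR-322 arm ratio difference between TAC+PDE5A-I and TAC was -2.50 to -1.98 without 1 library (exact permutation, adjusted p = 0.0606 to 0.0635; the smallest p that 5 against 4 libraries allow is 0.0159) and -1.43 without the shallow ones. TAC+PDE9A-I against TAC was -0.57 to 0.03 without 1 library and 0.027 without the shallow ones, and TAC+PDE5A-I against TAC+PDE9A-I was -2.23 to -1.53 without 1 library.

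Log2 fold changes that changed sign were called in neither fit, except miR-351-5p and miR-450a-5p with the GC correction. With it, TAC+PDE5A-I against TAC was -0.3996 for miR-351-5p, 0.26 for miR-450a-5p, 0.36 for miR-450b-3p, -0.3995 for miR-503-5p and -0.42 for miR-542-5p; TAC+PDE5A-I against TAC+PDE9A-I was 0.47 for miR-450a-5p, 0.084 for miR-450b-3p, -0.41 for miR-503-5p and -0.11 for miR-542-5p; and TAC against Sham was 0.0065 for miR-450b-3p. In TAC against Sham, miR-322-3p, miR-450b-3p and miR-542-5p were 0.16, 0.051 and 0.091 with total-count scaling, 0.18, 0.11 and 0.109 with no filter (miR-450b-5p 0.0022) and 0.13, 0.061 and 0.058 in the fit of the 2 groups alone, and miR-542-3p was -0.017 with thinned counts. In TAC+PDE5A-I against TAC+PDE9A-I, miR-503-5p was -0.14 with DESeq2 size factors, -0.018 with total counts, -0.13 with no filter, -0.16 with DESeq2 and -0.051 in the fit of the 2 groups alone. In TAC+PDE5A-I against TAC, miR-503-5p was -0.0015 with no filter and -0.28 with the ear tag term (-0.3986 in TAC+PDE9A-I against TAC), and miR-450b-3p was 0.28 without the shallow libraries.

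Without 1 library, TAC against Sham ranged from -0.096 to 0.18 for miR-322-3p, -0.0045 to 0.28 for miR-322-5p, -0.36 to 0.19 for miR-450b-3p, -0.37 to 0.038 for miR-450b-5p, -0.0040 to 0.53 for miR-542-3p and -0.086 to 0.10 for miR-542-5p. TAC+PDE5A-I against TAC ranged from -0.70 to 0.33 for miR-503-5p and -0.15 to 0.31 for miR-542-5p, and miR-503-5p ranged from -0.029 to 0.42 in TAC+PDE9A-I against TAC and from -0.83 to 0.22 in TAC+PDE5A-I against TAC+PDE9A-I.

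Replicate numbers did not pair the mice. Of the libraries in each comparison, 0 to 2 correlated best with their own number. With the replicate block, 112 microRNAs were higher and 152 lower in TAC+PDE5A-I against TAC, and each arm count was the one reported. Its sign changes were miR-322-3p in TAC against Sham (0.017), miR-450b-3p in TAC+PDE9A-I against TAC (-0.21), and miR-503-5p in TAC+PDE5A-I against TAC (-0.11) and against TAC+PDE9A-I (-0.62).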
